A study of Mus musculus with 18 samples.

Results

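The comparison described here set 3 libraries labelled as the Vhl/Hif2a knockout against 3 libraries of their floxed control, 6 of the 18 RNA-seq libraries of the series. They were found by their titles and by the genotypes in the labels, and all genes of the deposited table were considered. The cells were alveolar macrophages, washed from mouse lungs by bronchoalveolar lavage and held back on magnetic columns with CD11c beads. In the knockout, Cre recombinase under CD11c control was meant to delete Vhl and Hif2a, the latter known by the gene symbol Epas1. The control carried the flox/flox alleles of Vhl and Hif2a, and its labels do not say whether Cre was absent. Hif1a carried no floxed allele in either group by the labels. The series also holds a Vhl/Hif1a cross and a triple cross (Vhl, Hif1a and Hif2a), each with 3 knockout and 3 control libraries of its own. Age, sex and strain are not given in the labels, nor whether replicates came from separate mice, so p-values measure the spread between these libraries, which may be technical. CD11c is present on alveolar macrophages and on dendritic cells, so both the Cre and the beads can reach either cell type.

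The VHL protein is the part of a ubiquitin ligase that recognises HIF-1α and HIF-2α, the oxygen-regulated alpha subunits of the HIF transcription factors, once prolyl hydroxylases have marked them, and sends them to the proteasome. Without VHL the alpha subunits persist at normal oxygen, pair with ARNT and bind hypoxia response elements near their target genes. HIF-1α is best known for raising the enzymes of glycolysis, and alveolar macrophages are known for a quiet, lipid-handling state in an oxygen-rich airspace.

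The shared core of a hypoxia response element can be read in the DNA just before the start of several of the genes that rose most clearly. Both spellings of that core, ACGTG and GCGTG, were searched on both strands, and CACGTG holds ACGTG on each strand. The 250 bases before the start of 6 genes are shown, from RefSeq on GRCm38.p6, 5′ to 3′ on the strand of the gene, with each match in capitals. They are Pgk1 (chrX:106186850-106187099, plus strand), Pgam1 (chr19:41911621-41911870, plus), Slc2a1 (chr4:119108495-119108744, plus), the first of 2 starts of Ldha (chr7:46845554-46845803, plus), Bnip3 (chr7:138909507-138909756, minus) and Tpi1 (chr6:124814159-124814408, minus). The first 5 were picked because they hold a match, and Tpi1 because it rose as strongly as Pgk1 and holds none here.
Pgk1: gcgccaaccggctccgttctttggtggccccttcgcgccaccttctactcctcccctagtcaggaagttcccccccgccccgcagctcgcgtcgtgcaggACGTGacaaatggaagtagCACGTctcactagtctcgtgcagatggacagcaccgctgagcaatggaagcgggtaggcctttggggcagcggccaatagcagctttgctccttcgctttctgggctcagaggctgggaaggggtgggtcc
Pgam1: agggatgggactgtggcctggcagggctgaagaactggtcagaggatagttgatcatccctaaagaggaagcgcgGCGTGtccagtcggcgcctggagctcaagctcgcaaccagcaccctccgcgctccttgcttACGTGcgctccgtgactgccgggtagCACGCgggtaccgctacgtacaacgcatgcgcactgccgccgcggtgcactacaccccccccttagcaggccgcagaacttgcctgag
Slc2a1: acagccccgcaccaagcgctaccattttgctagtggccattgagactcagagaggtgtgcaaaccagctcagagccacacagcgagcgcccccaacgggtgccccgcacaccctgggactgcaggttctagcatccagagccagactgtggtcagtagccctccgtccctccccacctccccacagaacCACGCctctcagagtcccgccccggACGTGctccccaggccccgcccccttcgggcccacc
Ldha: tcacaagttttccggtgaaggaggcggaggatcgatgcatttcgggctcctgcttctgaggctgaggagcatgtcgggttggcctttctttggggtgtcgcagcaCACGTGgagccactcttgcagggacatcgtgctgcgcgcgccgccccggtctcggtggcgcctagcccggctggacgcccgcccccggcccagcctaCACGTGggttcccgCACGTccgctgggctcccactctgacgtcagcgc
Bnip3: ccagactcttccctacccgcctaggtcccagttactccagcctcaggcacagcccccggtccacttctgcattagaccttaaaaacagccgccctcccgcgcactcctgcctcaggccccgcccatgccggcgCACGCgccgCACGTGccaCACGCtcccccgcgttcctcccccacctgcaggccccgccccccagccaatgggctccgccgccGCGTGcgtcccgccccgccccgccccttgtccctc
Tpi1: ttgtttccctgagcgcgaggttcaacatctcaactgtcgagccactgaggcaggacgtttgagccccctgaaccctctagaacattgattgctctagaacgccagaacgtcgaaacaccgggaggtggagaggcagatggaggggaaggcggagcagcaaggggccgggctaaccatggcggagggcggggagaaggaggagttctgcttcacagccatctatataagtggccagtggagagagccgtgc

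These stretches hold 2 matches for Pgk1, 3 for Pgam1, 2 for Slc2a1, 5 for Ldha, 5 for Bnip3 and 0 for Tpi1. A match describes the letters and is not a binding site, and the absence of one says only that these letters are not in this window. Over 300-base windows around all 32851 RefSeq starts, 43.8% held either spelling, and over the starts of tested genes 61.1% did. The share was 59.1% for genes that rose and 61.9% for those that rose by at least 2 on the log2 scale. ACGTG alone was in 25.5% of the windows of tested genes and 38.1% of those of genes that rose by at least 2. It was in 19.1% of those of genes that fell and 11.8% of those of genes that fell by at least 2. For GCGTG the shares of the same sets were 49.5%, 42.3%, 46.7% and 32.9%. Among genes that rose by at least 3, ACGTG was in 32.2% of windows and GCGTG in 41.4%. These windows differ in base content: the median number of CpG pairs was 20 for tested genes, 13 for genes that rose by at least 2 and 11 for genes that fell by at least 2. In 4 ranges of CpG number, from fewest to most, either spelling was in 27.5%, 61.5%, 70.7% and 91.4% of the windows of genes that rose by at least 2 (40, 52, 41 and 35 windows). In the same ranges it was in 22.2%, 47%, 68.5% and 77% of the windows of genes not called. These shares were not tested, and some windows belong to the same gene. Of the 1895 genes called, 1474 had a RefSeq start in the table.

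Depth and labels were checked first. The knockout libraries held 30786806, 32224347 and 34015320 counts and the controls 19230452, 25794082 and 21699261, so a low gene was read more deeply in the knockouts. Levels below are in CPM, the counts of a gene per 1e6 counts of its library, scaled between libraries with TMM factors, and are given for libraries 1, 2 and 3 of a group in that order. A gene is said to have risen or fallen when its adjusted p, from edgeR's quasi-likelihood test with Benjamini-Hochberg adjustment, was under 0.05 (n = 3 libraries per group). Log2 fold changes are knockout over control, with their standard errors. All 6 libraries carried the RNA of alveolar macrophages: Siglecf, a lectin of these cells, lay between 443.5 and 627 CPM, Chil3, a secreted chitinase-like protein, between 16018 and 26633 CPM, and Plet1, a surface protein typical of them, between 1277 and 1549 CPM. Of the markers of other cells, none of 11 for T and NK cells and none of 6 for fibroblasts passed the filter on low counts.

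Vhl, the target shared by all 3 crosses, stood at 1.92, 2.48 and 2.36 CPM in the knockouts and at 17.5, 20.1 and 18.6 CPM in the controls. Every knockout library was far below every control (log2 fold change -3.05 ± 0.16, adjusted p = 7.6e-10). In bulk RNA, fewer cells with a transcript and less transcript per cell cannot be told apart, here and in every result below. Epas1, the second gene named in the genotype, stood at 47.97, 56.1 and 58.6 CPM in the knockouts and at 35.1, 23.2 and 24.7 CPM in the controls, so it rose (0.97 ± 0.19, adjusted p = 0.0019). Hif1a stood at 58.7, 78.6 and 61.6 CPM against 242, 179 and 231 CPM and fell (-1.71 ± 0.18, adjusted p = 4.3e-06), although the labels leave it intact. The table gives counts per gene and not per exon, so these values do not check the deletion of Epas1, and the libraries are called by their labels throughout.

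Control library 1 lay slightly nearer to the knockouts than the other controls did, over the genes that rose most. For each control in turn, genes with a log2 fold change of at least 3 were chosen with that control left out, and the control was then placed between the mean of the other 2 controls (at 0%) and the mean of the knockouts (at 100%). Control 1 stood at a median of 3.02% of the way over 99 genes (quartiles 0.27% and 8.48%), and 64.6% of these genes were higher in it than in both other controls, against 37.5% of all genes. Control 2 stood at 0.22% over 89 genes and control 3 at -1.75% over 84. Control 2 was above both other controls in 40.4% of its genes, against 30.2% of all genes. For control 3 these shares were 21.4% and 32.3%. Summed over its 99 genes, control 1 held 739.8 CPM, the other controls 513.6 CPM and the knockouts 7046 CPM. Some raised genes sat near the same place in it: 4.11% for Slc2a1, 3.87% for Pfkl, 3.47% for Tpi1, 3.40% for Pgk1, 3.24% for Ak4, 3.19% for Egln3, 3.02% for Ndufa4l2 and 2.55% for Bnip3. Others lay farther off on either side. Sccpdh stood at 17.91%, Mthfd1l at 17.25%, Basp1 at 13.08% and Itgam at 7.68%, but Kcnj15 at -0.69% and Rtl5 at -0.94%. Htra3, which rose by 3.29 on the log2 scale where Tpi1 rose by 3.28, stood at -3.06%.

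Where the other controls were near 0, this small shift in control 1 moved the fold change. Egln3 was at 11.5, 2.47 and 0.465 CPM in the controls, and its log2 fold change of 6.08 became 7.69 without control 1. Vegfa was at 2.15, 0.849 and 0.0929 CPM, and its 6.27 became 7.27. Ak4 (5.89 to 7.14), Ndufa4l2 (6.09 to 7.52) and Mgarp (6.41 to 8.08) moved the same way. For abundant genes the shift was smaller: Pgk1 went from 3.45 to 3.62 and Bnip3 from 4.31 to 4.55. Control 1 differed in other genes too. Hmox1, the haem-degrading enzyme, singled out after its values were seen, was at 643, 225 and 232 CPM in the controls and at 283, 256 and 256 CPM in the knockouts, and 20 genes were at least 2-fold higher and 42 at least 2-fold lower in control 1 than in all 5 other libraries, of 11330 with a mean of at least 1 CPM. For control 3 those counts were 0 and 63, and for the other 4 libraries 3 to 10 and 9 to 12. The source of the higher levels in control 1 was not tested.

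**Figure D1:**
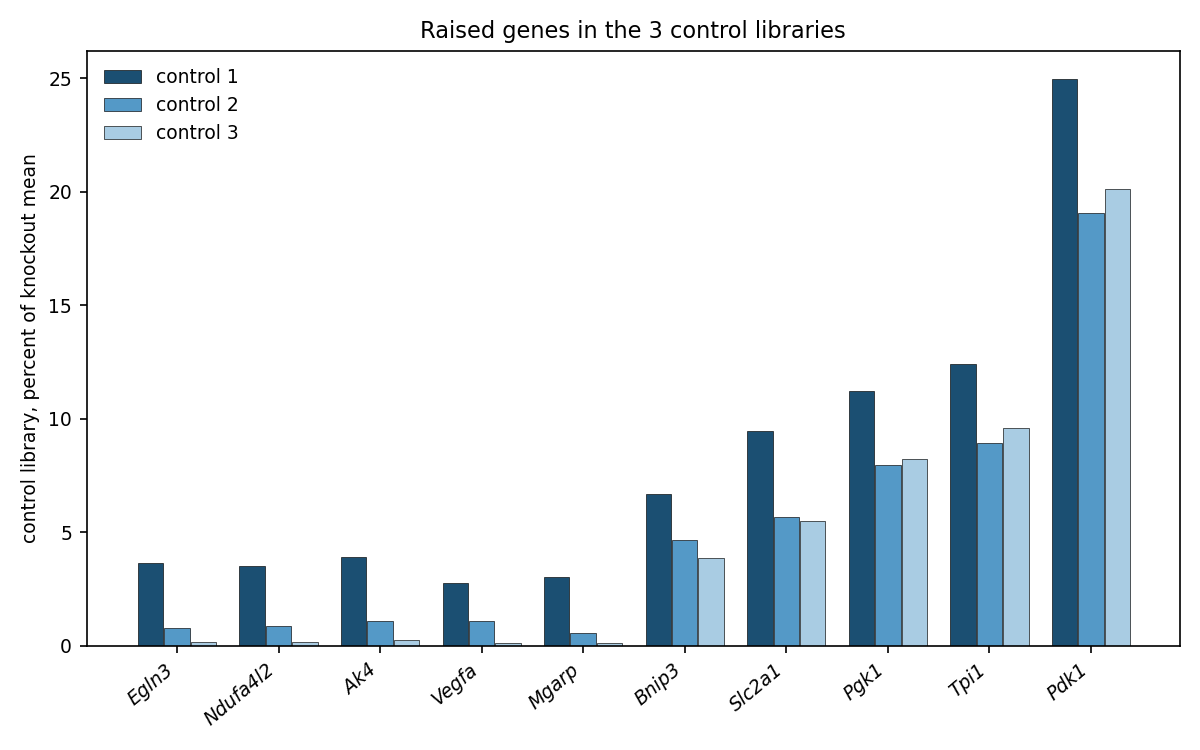
Level of 10 raised genes in each control library as a percent of the knockout mean (y axis, linear, from 0), with 1 bar for each of control 1, 2 and 3. Control 1 had the highest bar for every gene drawn, 3.64% for Egln3 where controls 2 and 3 had 0.781% and 0.147%.

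Of 12900 genes tested, 14.7% were called: 991 rose (7.68%) and 904 fell (7.01%). These shares are the background for every count of list members below. The increases were the larger ones. A log2 fold change of at least 1 was reached by 423 of the genes that rose and 263 of those that fell, of at least 3 by 85 and 13, and of at least 4 by 41 and 2. The median was 0.82 for genes that rose and -0.61 for genes that fell, against 0.003 for all genes tested. For 972 of the 991 and 867 of the 904, the knockout and control libraries did not overlap, as was so for 35.1% of all genes. The share of all counts held by genes that rose was larger by 5.12 percentage points in the knockouts, and the 15 with the largest gain held 42.9% of that difference, led by Chil3, Aldoa, Pgk1, Eno1, Pkm and Ldha. The count of calls was 1227 without knockout 1 and 1411 to 1625 without any other of the 6 libraries.

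**Figure D2:**
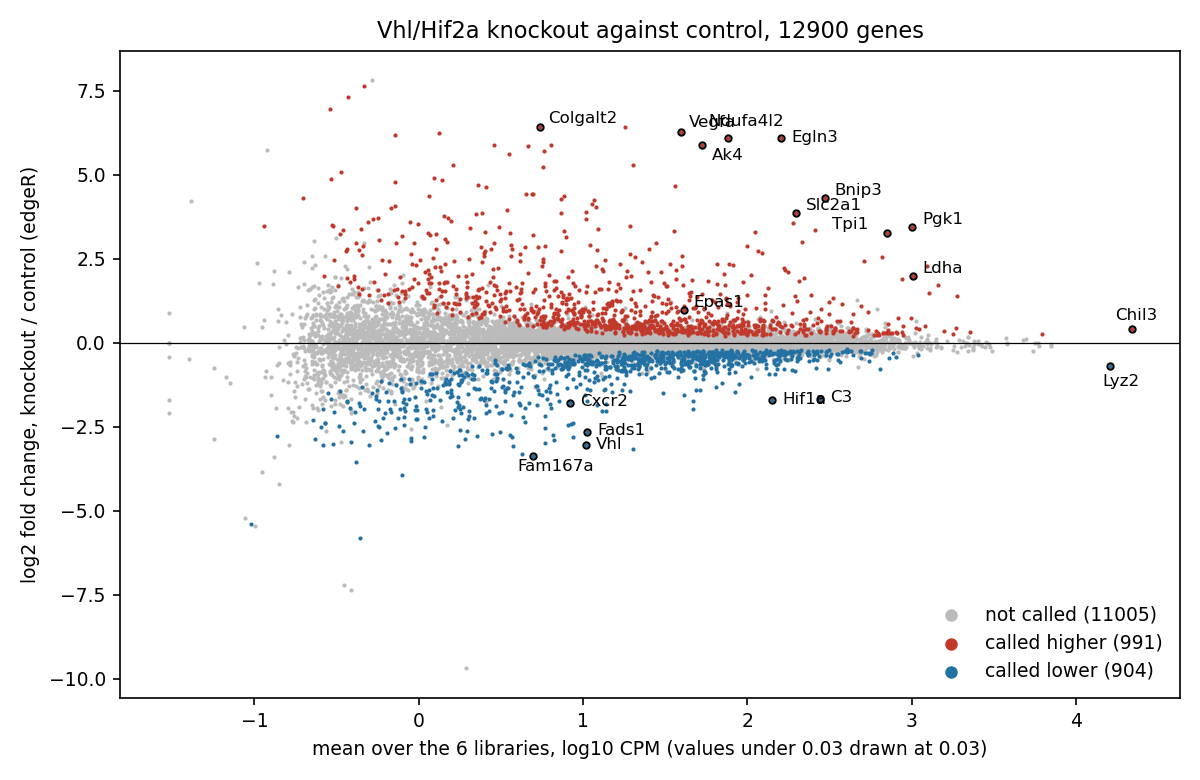
Log2 fold change of knockout over control (y axis) against mean level over the 6 libraries in log10 CPM (x axis) for the 12900 genes, with the 991 genes called higher and the 904 called lower in colour. The rising arm reaches above 6 and includes abundant genes such as Pgk1, while few genes fall below -3.

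The genes of the oxygen-sensing pathway itself changed in both directions. Of 15 tested members, 7 rose and 2 fell (median log2 fold change 0.24, against 0.003 over all genes). Egln1, the main HIF prolyl hydroxylase, was at 287, 256 and 287 CPM in the knockouts and at 62.9, 59.1 and 60.9 CPM in the controls (2.18 ± 0.10, adjusted p = 2.5e-10). Egln3, the most strongly inducible of these hydroxylases, was at 325, 289 and 335 against 11.5, 2.47 and 0.465 CPM (6.08 ± 1.06, and 7.69 without control 1). Egln2 differed little: 51.2, 45.5 and 44.5 against 37.9, 38.98 and 42.7 CPM, which did not pass (0.24 ± 0.19, adjusted p = 0.47). Per kilobase of exon, Egln3 made up 55.9% ± 0.79 (SD, n = 3) of the 3 hydroxylases in the knockouts and 5.24% ± 6.17 in the controls, while Egln2 went from 43.3% ± 4.52 to 7.93% ± 0.65.

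The makeup of the alpha subunits differed as well. Hif3a, whose products include inhibitors of the other alpha subunits, was at 11.1, 14.6 and 12.2 CPM in the knockouts and at 0.358, 0.270 and 0 CPM in the controls (5.89 ± 0.63, adjusted p = 4.6e-06). Per kilobase, Hif1a made up 88.1% ± 1.63 (SD, n = 3) of the RNA of the 3 alpha subunits in the controls and 49.2% ± 3.12 in the knockouts, and Epas1 11.8% ± 1.57 and 42.6% ± 3.38. Arnt, the partner of every alpha subunit, was level: 72.5, 67.8 and 72.5 against 71.5, 72.5 and 66.6 CPM (0.01 ± 0.07, adjusted p = 0.93). Cited2, which competes with HIF-1α for its coactivator, was at 127, 110.2 and 127 against 44.5, 54.8 and 55.95 CPM (1.23 ± 0.16, adjusted p = 2.9e-05). Bhlhe40, a repressor that is itself a known HIF target, rose less (0.66 ± 0.09). Hif1an, the asparaginyl hydroxylase that also restrains HIF, did not pass (40.6, 32.7 and 43.2 against 40.02, 35.9 and 29.8 CPM).

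Glucose uptake and the first steps of glycolysis were higher in 4 of 8 members. Slc2a1 (ENSMUSG00000028645, chromosome 4, 119108711 to 119137983 on GRCm38), the main glucose transporter of most cells, was at 352, 380.5 and 386 CPM in the knockouts and at 35.3, 21.2 and 20.4 CPM in the controls (3.87 ± 0.20, adjusted p = 5.7e-10). No knockout library came within reach of any control. Of 8 tested members of the list of glucose transporters, hexokinases and Gpi1, 4 rose and none fell (median 1.59), and their summed level was 2087 to 2148 CPM in the knockouts against 522 to 559 CPM in the controls. Hk1 (132, 139 and 138 against 32.9, 24.4 and 24.7 CPM, 2.32 ± 0.12) and Hk2 (149, 185 and 174 against 43.2, 46.01 and 35.8 CPM, 2.02 ± 0.11) rose. Hk3, the third hexokinase of these cells, did not: 39.9, 48.4 and 41.04 against 49.01, 38.4 and 39.2 CPM (0.03 ± 0.13, adjusted p = 0.92). Per kilobase, Hk3 was the most abundant of the 3 hexokinases in the controls at 52.9% ± 2.80 (SD, n = 3), and Hk2 in the knockouts at 50.5% ± 1.54. Slc2a3, a transporter of high affinity, remained low at 1.99, 0.931 and 5.32 against 0.767, 1.505 and 1.07 CPM and did not pass (1.29 ± 0.48, adjusted p = 0.087). Gpi1, the isomerase that follows hexokinase, was at 1383, 1343 and 1376 against 371, 366 and 372 CPM (1.89 ± 0.09, adjusted p = 3.4e-10).

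Phosphofructokinase, the committed step, changed its subunit balance. Pfkl, the liver-type subunit, was at 464, 488 and 468 CPM in the knockouts and at 57.8, 42.1 and 39.96 CPM in the controls (3.35 ± 0.15, adjusted p = 1.2e-10). Pfkp, the platelet-type subunit, was at 510.2, 550.3 and 502 against 217, 240.5 and 236 CPM (1.17 ± 0.07), so it rose by less. Per kilobase, Pfkl made up 28.2% ± 5.15 (SD, n = 3) of the 3 subunits in the controls and 64.2% ± 0.50 in the knockouts. Of the bifunctional enzymes that set the phosphofructokinase activator fructose 2,6-bisphosphate, Pfkfb3 rose (158, 127 and 152 against 54.2, 52.9 and 55.5 CPM, 1.43 ± 0.08). Pfkfb4, often named beside it as a hypoxia gene, did not pass (203, 214 and 199 against 212, 218 and 219 CPM, -0.07 ± 0.09). Of the 8 tested genes of this step 3 rose and 1 fell (median 0.37). The 1 that fell was Tigar, a fructose bisphosphatase (32.8, 32.2 and 34.6 against 43.8, 48.6 and 47.4 CPM, -0.49 ± 0.08, adjusted p = 0.00022).

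The lower steps, from aldolase to pyruvate kinase, rose in every enzyme of the main line. Of 11 tested genes 8 rose and 1 fell (median 1.73), and together they took 13275 to 13704 CPM in the knockouts against 3124 to 3650 CPM in the controls, which is 1.35% and 0.339% of all counts. Pgk1 (ENSMUSG00000062070, chromosome X, 106187100 to 106203699), the kinase that makes the first ATP of the pathway, was at 1888, 1811 and 1860.0 CPM in the knockouts and at 208, 148 and 153 CPM in the controls (3.45 ± 0.11, adjusted p = 4.8e-12). Tpi1, the triose isomerase, was at 1263, 1343 and 1231 against 159, 114 and 123 CPM (3.28 ± 0.13). These were the largest fold changes of this stretch. Pgam1 (2.57 ± 0.10), Eno1 (2.29 ± 0.10), Aldoc (2.10 ± 0.15), Pkm (1.73 ± 0.12), Gapdh (1.48 ± 0.13) and Aldoa (1.39 ± 0.13) followed. In CPM the largest gain was that of Aldoa, from 1091, 960.2 and 1084 in the controls to 2795, 2763 and 2654 in the knockouts. Eno2, the neuronal enolase, fell at a very low level (0.0662, 0.186 and 0.0897 against 0.716, 0.502 and 0.279 CPM, -2.07 ± 0.57), a call that ended without control 1, control 2, knockout 1 or knockout 3 (log2 fold change -2.06 to -1.75, adjusted p up to 0.096). Gapdh, Eno1, Ldha, Pgk1 and other genes of this group have near-identical pseudogene copies, and how reads were split between copies is not known.

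**Figure D3:**
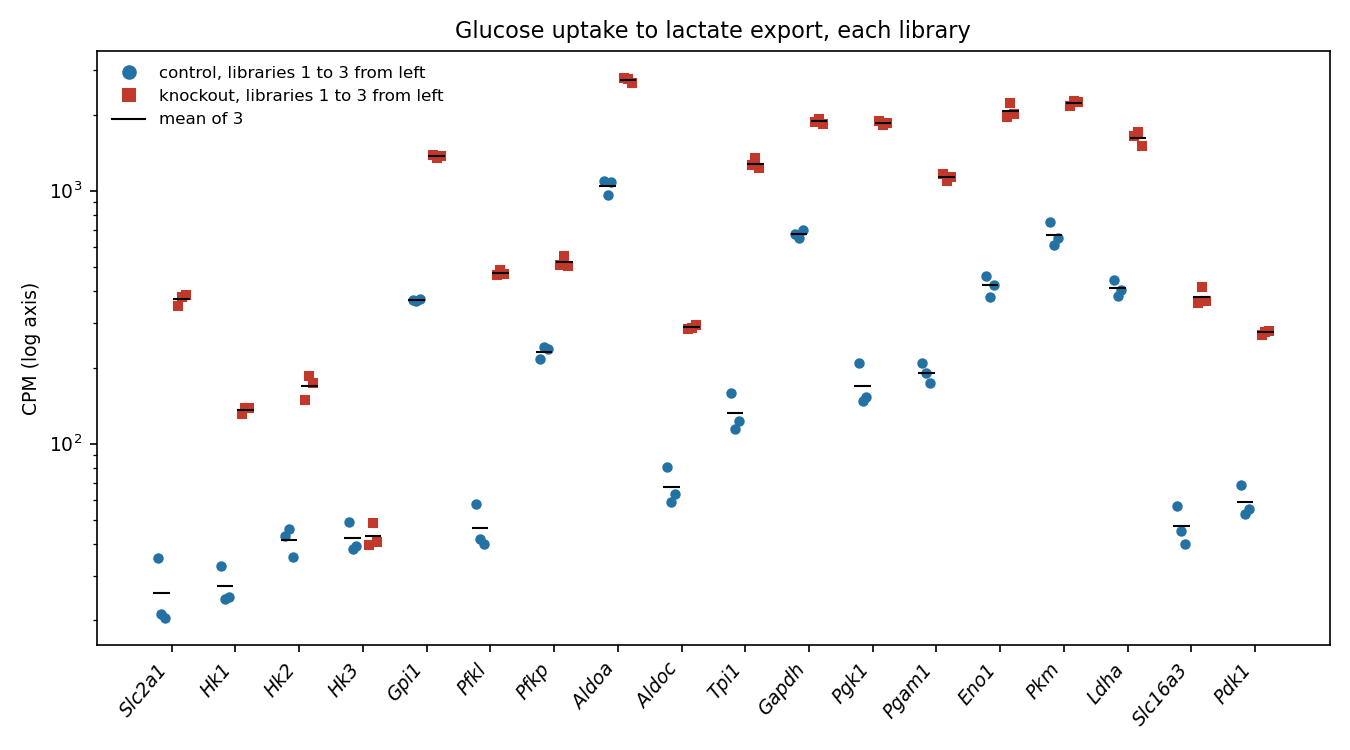
Level in CPM (y axis, log scale) of 18 genes from glucose uptake to lactate export, as 1 point for each of the 3 control and 3 knockout libraries, with the group mean as a line. All genes drawn except Hk3 have their knockout points above every control point.

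Genes that make and export lactate rose, as did the pyruvate dehydrogenase kinases Pdk1 and Pdk4. Ldha, the lactate dehydrogenase subunit that works on pyruvate, was at 1649, 1706 and 1505 CPM in the knockouts and at 444, 385 and 404 CPM in the controls (1.98 ± 0.09, adjusted p = 1.8e-10). Slc16a3 (MCT4), the lactate exporter of glycolytic cells, was at 361, 415 and 366 against 56.9, 45.2 and 40.2 CPM (3.01 ± 0.19, adjusted p = 1.1e-08). Slc16a1 (MCT1), which carries lactate in either direction, rose by less (29.7, 31.4 and 30.01 against 19.9, 20.5 and 22.7 CPM, 0.53 ± 0.10). Pdk1, a kinase that switches off pyruvate dehydrogenase, was at 269.7, 277 and 279.5 against 68.7, 52.5 and 55.4 CPM (2.23 ± 0.11, adjusted p = 3.2e-10). Pdk4, a kinase of the same enzyme that is known from fasting and lipid use, was at 63.4, 63.3 and 59.7 against 37.6, 18.4 and 21.3 CPM (1.27 ± 0.19). Pdk3, a further such kinase, was called as well (0.34 ± 0.10), and its call ended without any 1 of the 6 libraries (log2 fold change 0.30 to 0.37, adjusted p up to 0.12). Per kilobase, Pdk1 made up 45.6% ± 1.55 (SD, n = 3) of the 4 kinases in the knockouts and 21.3% ± 0.58 in the controls. The dehydrogenase subunit Pdha1 did not pass (105, 103 and 105 against 111, 96.3 and 111 CPM, -0.02 ± 0.10), nor did the carrier subunits that bring pyruvate into mitochondria, Mpc1 (-0.15 ± 0.10, adjusted p = 0.38) and Mpc2 (-0.11 ± 0.18, adjusted p = 0.79). Of the 17 tested genes of pyruvate fate 6 rose and none fell (median 0.06).

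Of 13 tested glycogen genes 7 rose and 1 fell (median 0.38). Gys1, the glycogen synthase outside the liver, was at 190.4, 213 and 205 CPM in the knockouts and at 38.7, 26.1 and 26.9 CPM in the controls (2.73 ± 0.16, adjusted p = 3.4e-09). The branching enzyme Gbe1 was at 19.7, 17.7 and 19.1 against 6.29, 6.75 and 5.44 CPM (1.61 ± 0.17), and Pgm1, which makes glucose 1-phosphate, at 126, 139 and 126 against 26.6, 23.9 and 25.7 CPM (2.36 ± 0.09). Ppp1r3b, a subunit that brings phosphatase to glycogen, was at 78.2, 73.9 and 82.02 against 30.1, 28.4 and 27.3 CPM (1.45 ± 0.10). Its relative Ppp1r3g also rose, from 0.307, 0.116 and 0 CPM in the controls to 7.67, 5.12 and 7.98 CPM in the knockouts, with too few control counts for a fold. Pygl, the phosphorylase that breaks glycogen down, rose by little (818, 766 and 836 against 554, 599 and 709 CPM, 0.38 ± 0.09). The 1 that fell was Gyg, the protein that primes new glycogen (136, 107 and 121 against 207, 126 and 186 CPM, -0.51 ± 0.14), and its call ended without control 1, control 3, knockout 2 or knockout 3 (log2 fold change -0.51 to -0.36, adjusted p up to 0.12). The pentose phosphate pathway showed no such rise: none of 7 tested genes rose and 1, G6pdx, fell (-0.26 ± 0.08), a call that ended without control 1, control 3, knockout 1 or knockout 3 (log2 fold change -0.26 to -0.18, adjusted p up to 0.19).

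In mitochondria, genes of adaptation to low oxygen rose while the bulk of the respiratory chain did not pass. Ndufa4l2, which can replace the cytochrome oxidase subunit NDUFA4, was at 153, 138 and 158 CPM in the knockouts and at 5.26, 1.31 and 0.232 CPM in the controls (6.09 ± 0.49, and 7.52 without control 1). Ndufa4 itself fell, from 66.3, 79.1 and 79.2 CPM in the controls to 27.6, 30.1 and 26.6 CPM in the knockouts (-1.41 ± 0.13, adjusted p = 8.3e-07). Per kilobase, the pair therefore went from 3.84% ± 4.63 (SD, n = 3) Ndufa4l2 in the controls to 87.0% ± 1.52 in the knockouts. Bnip3, a receptor that marks mitochondria for autophagy, was at 580.3, 552 and 556 against 37.7, 26.2 and 21.7 CPM (4.31 ± 0.18, adjusted p = 9.8e-11), while its relative Bnip3l was at 539, 495 and 556 against 361, 411 and 419.5 CPM (0.42 ± 0.09). Fam162a (2.34 ± 0.11), Higd1a (1.90 ± 0.12), a stabiliser of respiratory complexes, and the matrix protease Lonp1 (0.61 ± 0.08) rose as well. The mitochondrial adenylate kinase Ak4 was at 113, 92.6 and 106 against 4.04, 1.12 and 0.279 CPM (5.89 ± 0.44, and 7.14 without control 1). Of 12 tested genes of mitochondrial adaptation 8 rose and 1 fell (median 1.25).

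The respiratory chain and ATP synthase had 73 tested genes, of which 2 rose and 1 fell (median 0.10), under the 14.7% of all genes. Ndufv3, an accessory subunit of complex I, was the clearest (71.95, 75.9 and 70.3 against 31.7, 37.4 and 40.1 CPM, 0.998 ± 0.14, adjusted p = 0.00011). The other calls were Ndufa9 (0.29 ± 0.08), which ended without control 1, control 2, knockout 1 or knockout 2 (log2 fold change 0.26 to 0.30, adjusted p up to 0.079), and Sdhb (-0.31 ± 0.09), which ended without control 2, control 3, knockout 1, knockout 2 or knockout 3 (log2 fold change -0.32 to -0.25, adjusted p up to 0.13). Without control 2, knockout 1 or knockout 2 the counts were 1 higher and none lower. Of the 73 genes 59 had a log2 fold change above 0, where 6508 of all 12900 did. In 24 every knockout library was above every control, against 18.5% of all genes. In 2 every knockout library was below every control, against 16.6%. Of the 13 tested genes of the mitochondrial genome edgeR called 0 (median -0.12), with 0 at an unadjusted p under 0.05 and 0 called by DESeq2. Of 17 genes of the tricarboxylic acid cycle it called 0 (median 0.01), with 3 at an unadjusted p under 0.05 and 0 called by DESeq2. Of 20 tested genes of fatty acid oxidation, 1 rose and 2 fell (median 0.04), near the 14.7% of all genes. The counts were 0 and 0 without control 1, control 2 or knockout 1, 2 and 0 without control 3, 1 and 1 without knockout 2, and 0 and 1 without knockout 3.

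Enzymes that modify collagen rose in most of their tested members, 7 of 10, with none lower (median 1.31). P4ha1, a catalytic subunit of collagen prolyl hydroxylase, was at 382, 286 and 389.5 CPM in the knockouts and at 86.1, 88.4 and 104 CPM in the controls (1.93 ± 0.13, adjusted p = 1.5e-08). Plod1 (274, 275 and 296 against 111, 114 and 134 CPM, 1.23 ± 0.09) and Plod2 (19.6, 12.2 and 10.2 against 1.18, 0.733 and 0.232 CPM, 4.30 ± 0.46), both lysyl hydroxylases, rose too. Ero1l, the oxidase that recharges disulphide formation in the endoplasmic reticulum, was at 291, 271 and 280.4 against 114, 104 and 103 CPM (1.39 ± 0.12). P4hb, the partner subunit of the prolyl hydroxylases and an abundant disulphide isomerase, rose by little (0.29 ± 0.06). Plod3 did not pass (408, 373 and 399.9 against 319.8, 356 and 395 CPM, 0.14 ± 0.10). The prolyl and lysyl hydroxylases among them use oxygen and 2-oxoglutarate, as the HIF hydroxylases do.

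Another group of enzymes that use oxygen and 2-oxoglutarate, the JmjC histone demethylases, was split. Of 16 tested members 6 rose and none fell (median -0.06). Kdm4b was at 66.2, 67.99 and 68.4 CPM in the knockouts and at 21.9, 24.1 and 24.3 CPM in the controls (1.53 ± 0.13, adjusted p = 3.8e-07). Kdm5b (1.18 ± 0.12), Kdm3a (1.07 ± 0.11), Kdm2a (0.65 ± 0.07) and Jmjd6 (1.11 ± 0.10) also rose, with no knockout library at or below a control. Their closest relatives did not pass: Kdm3b was at 112, 130.4 and 135 against 141, 145 and 138 CPM (-0.17 ± 0.09), and Kdm4a at 66.3, 64.4 and 68.3 against 75.1, 71.9 and 68.2 CPM (-0.11 ± 0.09). Kdm6b was the sixth call (0.50 ± 0.16), and it ended without any 1 of the 6 libraries (log2 fold change 0.42 to 0.58, adjusted p up to 0.17).

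Among angiogenic and vasoactive factors 5 of 14 rose and 2 fell (median 0.28). Vegfa, the vascular growth factor, was at 85.7, 60.5 and 86.5 CPM in the knockouts and at 2.15, 0.849 and 0.0929 CPM in the controls (6.27 ± 0.48, and 7.27 without control 1). Angpt2, an angiopoietin, rose at a low level (0.959, 1.06 and 1.02 against 0.204, 0.232 and 0.0929 CPM, 2.47 ± 0.49). The peptide hormones Adm (0.364, 0.279 and 0.508 against 0, 0.0386 and 0 CPM, adjusted p = 0.0045) and Adm2 (5.53, 6.21 and 5.17 against 0.204, 0.0386 and 0.0465 CPM) rose too, with too few control counts for a fold. So did Apln, another peptide hormone, which is in none of the lists (2.98, 4.07 and 2.39 against 0.153, 0.0386 and 0.0465 CPM). Vash1, an inhibitor of vessel growth, went the other way, at 1.19, 1.89 and 1.64 against 10.6, 13.2 and 11.6 CPM (-2.90 ± 0.27, adjusted p = 9.2e-07). The coreceptors of the growth factor diverged, with Nrp1 higher (149, 147 and 187 against 114, 122 and 130.3 CPM, 0.40 ± 0.09) and Nrp2 lower (96.9, 136 and 110.3 against 182, 171 and 172 CPM, -0.61 ± 0.11).

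Further genes stood out by fold change or by gain and belong to none of these groups. Rgs11, a regulator of G protein signalling, was at 39.2, 45.4 and 32.7 CPM in the knockouts and at 1.53, 0.965 and 0.511 CPM in the controls (5.29 ± 0.27, adjusted p = 5.7e-10). Ankrd37, known as a HIF target, was at 11.4, 11.98 and 9.805 against 0.460, 0.193 and 0.232 CPM (5.25 ± 0.41). Stc2, a secreted glycoprotein, was at 10.4, 12.5 and 10.9 against 0.460, 0.116 and 0.0929 CPM (5.70 ± 0.50, and 6.68 without control 1). For these 3, a lack of overlap between the groups was a condition of being named. Htra3, a secreted serine protease, was at 213, 185 and 204 against 16.8, 20.1 and 24.4 CPM (3.29 ± 0.16). Gsn, the actin-severing protein gelsolin, had one of the 15 largest gains (835, 917 and 859.7 against 179, 142 and 162 CPM, 2.43 ± 0.20). Ddit4, which restrains mTORC1 under stress, rose at a low level (6.29, 5.15 and 8.04 against 0.613, 1.04 and 0.325 CPM, 3.27 ± 0.47). Eif4ebp1, a translation repressor downstream of the same kinase, was at 89.1, 88.6 and 88.4 against 35.5, 38.9 and 41.2 CPM (1.20 ± 0.16). Mxi1, a Myc antagonist and known HIF-1 target, and the cell cycle inhibitor Cdkn1b rose by 0.71 and 0.72 on the log2 scale.

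Cell division genes were lower. Of 25 tested mitosis genes 18 fell and none rose (median -0.54), and 24 of the 25 had every knockout library below every control, against 16.6% of all genes. Mki67, present in all dividing cells, was at 119.6, 166 and 133 CPM in the knockouts and at 264, 260.1 and 223 CPM in the controls (-0.83 ± 0.18, adjusted p = 0.0035). Plk1, a mitotic kinase, was at 12.6, 11.9 and 10.8 against 22.1, 18.6 and 19.3 CPM (-0.76 ± 0.10), and Top2a, which untangles chromosomes, at 98.2, 90.2 and 102 against 157, 165 and 165 CPM (-0.75 ± 0.15). In all 3, every knockout library was below every control. Of 33 DNA replication genes 18 fell and none rose (median -0.43). In Mcm6, a helicase subunit, knockout 2 lay among the controls (55.8, 83.5 and 55.8 against 109, 80.1 and 91.5 CPM, -0.53 ± 0.14), and the call that ended without control 1, knockout 1 or knockout 3 (log2 fold change -0.43 to -0.40, adjusted p up to 0.12). The replication count was 9 without control 1, 10 without control 3, 8 without knockout 1 and 8 without knockout 3. Rrm2, the regulated subunit of ribonucleotide reductase, kept its call each time (47.1, 37.1 and 51.3 against 71.96, 64.9 and 73.8 CPM, -0.64 ± 0.10).

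Interferon-stimulated genes were lower as a group. Of 33 tested members 20 fell and none rose (median -0.47), where 7.01% of all genes fell. In 26 of them every knockout library was below every control, against 16.6% of all genes. Most of those with large changes were at a few CPM. Ifit3 was at 1.06, 0.590 and 0.927 CPM in the knockouts and at 5.32, 5.83 and 4.97 CPM in the controls (-2.64 ± 0.43, adjusted p = 0.00041). Irf7, the factor that amplifies type I interferon, was at 3.14, 2.14 and 3.26 against 8.48, 8.53 and 8.18 CPM (-1.56 ± 0.23). Gbp3, a guanylate-binding protein, had the smallest adjusted p of the list (1.49, 1.397 and 1.67 against 7.104, 6.87 and 7.296 CPM, -2.22 ± 0.17, adjusted p = 7.6e-08). Isg15 did not pass (1.89, 2.05 and 1.91 against 2.81, 4.01 and 2.65 CPM, -0.70 ± 0.24, adjusted p = 0.062).

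Antigen presentation and costimulation genes were lower in part. Nlrc5, the transactivator of MHC class I, was at 1.79, 2.79 and 2.93 CPM in the knockouts and at 15.2, 14.98 and 10.6 CPM in the controls (-2.44 ± 0.20, adjusted p = 2.6e-07). The class I genes themselves changed little, with 2 of 13 lower (median -0.09), Nlrc5 being in that list, and the other call was B2m, the light chain (1017, 872 and 964 against 1183, 1262 and 1235 CPM, -0.37 ± 0.10), whose call ended without control 2 or knockout 2 (log2 fold change -0.35 to -0.31, adjusted p up to 0.067). All 11 tested class II genes had a log2 fold change below 0 (median -0.47), 4 of them called, and the count was 1 without control 2, knockout 1 or knockout 2 and 2 without control 3 or knockout 3. Ciita, the class II transactivator, was one of the 4 (3.97, 5.81 and 6.22 against 7.16, 11.9 and 12.4 CPM, -0.98 ± 0.29), and its call ended without control 2, control 3, knockout 1, knockout 2 or knockout 3 (log2 fold change -1.10 to -0.80, adjusted p up to 0.16). Of 10 costimulatory and checkpoint ligands 5 fell and 1 rose (median -0.40), with 3 lower without control 2 or knockout 3, and 4 lower and 2 higher without control 1. Cd86 was at 5.89, 8.66 and 8.37 against 12.6, 15.01 and 12.96 CPM (-0.82 ± 0.18) and Lgals9 at 31.99, 32.3 and 37.7 against 50.96, 66.97 and 65.2 CPM (-0.84 ± 0.11). The 1 that rose was Tnfsf9, the ligand of 4-1BB, at 5.89, 4.13 and 4.87 against 0.256, 0.232 and 0.0929 CPM (4.65 ± 0.58, adjusted p = 2.6e-05).

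Markers of dendritic cells were lower in the knockouts too. Of 10 tested, 6 fell and none rose (median -1.18), and their summed level was 13.03, 18.01 and 16.3 CPM in the knockouts and 61.4, 55.8 and 27.9 CPM in the controls. Ccr7, the receptor of migrating dendritic cells, was at 2.48, 2.33 and 3.23 CPM in the knockouts and at 18.4, 16.9 and 7.296 CPM in the controls (-2.40 ± 0.33, adjusted p = 6.5e-05). Flt3, the receptor of their growth factor, was at 1.19, 0.9003 and 1.31 against 4.09, 4.52 and 2.18 CPM (-1.66 ± 0.28). Control 3 lay closest to the knockouts in these markers, and the count was 3 without control 1 or control 2. The cytokine subunit Il12b (0.165, 0.186 and 0.448 against 2.402, 2.35 and 0.929 CPM, -2.80 ± 0.47, and -3.40 without knockout 3) and the chemokine Ccl5 (0.397, 0.745 and 0.837 against 3.68, 3.47 and 0.883 CPM, -2.01 ± 0.44) were also lowest in control 3 among the controls. The summed level of the class II list was instead highest in control 3 among the controls (3728, 3281 and 4137 against 3709, 4671 and 4852 CPM). The part of dendritic cells in the falls of class II, costimulatory and cytokine genes was not tested.

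Marker lists of other cell types had fewer calls than that of dendritic cells, although the neutrophil and lung epithelium lists had higher summed levels. Of 7 tested neutrophil markers 1 rose and 2 fell (median -0.51), with a summed level of 127 to 158 CPM in the knockouts and 124 to 204 CPM in the controls. S100a8, an alarmin of neutrophils and monocytes, was at 11.7, 8.88 and 10.6 against 2.91, 3.898 and 3.25 CPM (1.62 ± 0.19), and Cxcr2, a chemokine receptor, at 4.17, 3.79 and 3.32 against 13.8, 11.4 and 13.9 CPM (-1.79 ± 0.16), so the list did not move as one. Among 8 tested lung epithelium markers 1 was called, Cdh1, the adhesion protein E-cadherin, which alveolar macrophages are also known to make (203, 211 and 192 against 138, 122 and 155 CPM, 0.54 ± 0.11), and the sums overlapped (505 to 543 CPM against 396 to 559 CPM). Of 2 endothelial and 3 erythrocyte genes edgeR called 0, with 0 and 1 at an unadjusted p under 0.05 and 0 and 0 called by DESeq2, and without control 1 it called 1 erythrocyte gene. The single calls among B cell markers (Ighm, -1.67) and among those of eosinophils and mast cells (Kit, -1.22) ended without control 1, control 3, knockout 1, knockout 2 or knockout 3 (log2 fold change -1.95 to -1.38, adjusted p up to 0.16) and without control 1, control 2, knockout 1 or knockout 2 (log2 fold change -1.18 to -0.86, adjusted p up to 0.2).

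Inflammatory mediators went both ways. Of 15 tested cytokines and regulators of NF-κB 1 rose and 5 fell (median -0.30), with counts of 0 and 3 without control 1, 2 and 2 without control 2, 0 and 4 without control 3 or knockout 2, and 0 and 2 without knockout 1 or knockout 3. Tnf was at 8.96, 11.9 and 5.68 CPM in the knockouts and at 15.5, 22.96 and 23.7 CPM in the controls (-1.23 ± 0.36), a call that ended without control 2, control 3, knockout 1 or knockout 3 (log2 fold change -1.24 to -0.99, adjusted p up to 0.13). Nfkb1, a subunit of NF-κB, fell slightly, with a mean of 144 ± 5.32 against 177 ± 7.49 CPM (SD, n = 3) (-0.30 ± 0.07). Of 18 chemokines and their receptors 3 rose and 4 fell (median -0.23). Cxcl10, an interferon-induced attractant of T cells, was at 0.430, 0.776 and 0.508 against 3.37, 4.400 and 4.04 CPM (-2.77 ± 0.36) and Cxcl16 at 3.54, 3.69 and 3.56 against 11.9, 12.5 and 6.41 CPM (-1.51 ± 0.22). Among those that rose were Ccl9 (191, 130.4 and 194 against 85.3, 97.4 and 74.6 CPM, adjusted p = 0.0011) and Cxcl14 (1.01 ± 0.20). The immediate early gene Fos, which responds to handling of cells, was at 1094, 444 and 922 against 174, 661 and 382 CPM and did not pass (1.01 ± 0.43, adjusted p = 0.13). Ier3, the 1 call of 12 immediate early genes, was at 66.5, 34.1 and 69.05 against 3.94, 17.6 and 11.5 CPM (2.34 ± 0.40), and without control 2 the list had 3 calls.

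Most alveolar macrophage identity genes did not pass. Of 26 tested 7 rose and 2 fell (median 0.10), and the count was 4 and 1 without control 2 or knockout 1, 5 and 1 without control 3 or knockout 2, and 4 and 2 without knockout 3. Over all genes 7.68% rose and 7.01% fell, so a larger share of this list rose. Siglecf was one of the 2 that fell (-0.30). Its call ended without control 2, control 3, knockout 1 or knockout 2 (log2 fold change -0.305 to -0.239, adjusted p up to 0.11). Pparg, the receptor these cells need to form, was at 294, 246 and 297 CPM in the knockouts and at 209.6, 240.1 and 252 CPM in the controls (0.26 ± 0.12, adjusted p = 0.17), and Mrc1, the mannose receptor, at 2409, 2543 and 2822 against 2451, 2439 and 2552 CPM (0.06 ± 0.11). Neither passed. Fabp1, a fatty acid binding protein, rose (409.8, 454 and 351 against 234, 201 and 242 CPM, 0.84 ± 0.12), and Krt79, a keratin, fell (409, 426 and 407 against 547, 598 and 548 CPM, -0.45 ± 0.07). Itgax, which encodes CD11c, rose (1990.0, 2240.0 and 2201 against 1540.0, 1578 and 1587 CPM, 0.45 ± 0.06). Chil3 took the largest gain of any gene in CPM (26633, 23898 and 24591 against 16018, 20093 and 19751, 0.43 ± 0.12), a call that ended without control 1, knockout 1 or knockout 3 (log2 fold change 0.33 to 0.44, adjusted p up to 0.13). The largest loss was that of Lyz2, the lysozyme of myeloid cells (11890.0, 11635 and 13622 against 19565, 20263 and 20403 CPM, -0.70 ± 0.07, adjusted p = 2.1e-06), followed by the matrix protein Tgfbi (438, 486 and 495 against 724, 807 and 904 CPM, -0.78 ± 0.09).

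Adhesion genes other than Itgax changed in both directions. Itgam, which encodes CD11b and is low in resting alveolar macrophages, was at 37.5, 59.9 and 35.1 CPM in the knockouts and at 8.33, 6.098 and 4.600 CPM in the controls (2.80 ± 0.21, adjusted p = 6.7e-08). Of 11 further integrins and adhesion molecules none rose and 3 fell (median -0.19), with 1 without knockout 1 or knockout 3. Itgal, the alpha subunit of LFA-1, fell (405, 479 and 456 against 626, 665 and 656 CPM, -0.54 ± 0.09). Of 103 tested genes within 2 Mb of Itgax, the locus whose regulatory DNA drives the Cre transgene, 10 rose and 4 fell, which is 13.6% against 14.7% of all genes. The integrin genes Itgam and Itgad were among the 10 and Itgal among the 4. Around Vhl 8.6% of 35 neighbours were called, around Epas1 4.8% of 21 and around Hif1a 15% of 20.

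Lipid handling changed by branch. Of 14 tested lipid chaperones and efflux genes 6 rose and none fell (median 0.36). Fabp4, a fatty acid chaperone, was at 357, 357 and 350.5 CPM in the knockouts and at 173, 119.6 and 103 CPM in the controls (1.43 ± 0.15, adjusted p = 4.7e-06), and Apoe at 88.7, 119 and 131 against 37.4, 33.04 and 32.5 CPM (1.72 ± 0.22). Nr1h3, the oxysterol receptor LXRα, was at 82.5, 70.4 and 81.9 against 50.3, 54.5 and 55.2 CPM (0.55 ± 0.10). On lipid droplets, Plin4 (7.25, 7.33 and 8.699 against 1.02, 1.004 and 1.16 CPM, 2.86 ± 0.29) and Hilpda, an inhibitor of the lipase ATGL and a known HIF target (15.7, 10.5 and 14.7 against 3.83, 4.98 and 3.72 CPM, 1.70 ± 0.19), rose. The droplet list had 3 higher and 1 lower of 14 tested (median 0.16), and 2 and 0 without control 1 or knockout 1. Desaturation went down in its polyunsaturated branch: Fads1 was at 2.58, 1.99 and 4.16 against 20.8, 15.8 and 18.4 CPM (-2.65 ± 0.21, adjusted p = 1.2e-07) and Fads2 at 0.397, 0.497 and 0.418 against 2.095, 2.16 and 1.21 CPM (-2.05 ± 0.39). The list of fatty acid synthesis and desaturation, 2 higher and 3 lower of 12 (median -0.21), had none higher and 3 lower without control 2, knockout 1 or knockout 3, 1 and 3 without knockout 2, and 1 and 2 without control 3. All 23 cholesterol synthesis and uptake genes had a log2 fold change below 0 (median -0.32), and 8 were called. Cyp51 was at 75.8, 65.8 and 65.2 against 116, 108 and 97.2 CPM (-0.63 ± 0.13), and the count was 5 without control 1 and 4 without control 2, knockout 1 or knockout 3.

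Ribosomal protein genes were slightly higher in nearly every case. Of 78 tested cytosolic ribosomal protein genes 31 rose and none fell (median 0.36), 76 had a log2 fold change above 0 and 73 had every knockout library above every control, against 18.5% of all genes. Their summed level was 31287 to 32900 CPM in the knockouts and 22848 to 27160 CPM in the controls. The number of calls depended on single libraries, at 8 without control 1, 17 without control 2, 10 without knockout 1, 12 without knockout 2 and 16 without knockout 3. With a fit to the 6 libraries alone it was 47. Many of these genes have processed copies in the genome, so their single values are uncertain. Of 78 mitochondrial ribosomal protein genes 1 rose (median 0.10), with 3 without control 3.

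Genes of stress and amino acid supply were mixed. Shmt2, the mitochondrial serine hydroxymethyltransferase, was at 68.6, 82.1 and 70.2 CPM in the knockouts and at 39.2, 31.5 and 37.3 CPM in the controls (1.03 ± 0.13, adjusted p = 2.6e-05), while Mthfd2, the next enzyme in the mitochondrial folate pathway, was at 12.2, 16.7 and 9.95 against 25.7, 23.00 and 19.9 CPM (-0.82 ± 0.15). Phgdh, the entry to serine synthesis from glycolysis, fell as well (135, 142 and 128 against 218, 222 and 275 CPM, -0.82 ± 0.14). Of 19 tested genes of amino acid stress and mTOR restraint 4 rose and 5 fell (median -0.06), with 2 lower without control 1, knockout 1 or knockout 3 and 3 lower without control 3. Slc7a11, the cystine transporter, was one of the 5, with control 1 apart (29.2, 23.3 and 27.7 against 132, 45.1 and 35.7 CPM, -1.40 ± 0.39), and its call ended without control 1, knockout 1, knockout 2 or knockout 3 (log2 fold change -1.46 to -0.60, adjusted p up to 0.23). Txnrd1, a thioredoxin reductase of the oxidative stress response, was also highest in control 1 (119, 133 and 115 against 266, 183 and 180.3 CPM, -0.78 ± 0.12), and kept its call without it (-0.57).

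Receptors and enzymes of monocytes and of innate sensing were mixed too. Of 13 tested monocyte and interstitial macrophage genes 2 rose and 3 fell (median -0.24), and 1 and 4 without control 3. Csf1r, the receptor of macrophage growth factor, was at 198, 239 and 223 CPM in the knockouts and at 305, 326 and 307 CPM in the controls (-0.51 ± 0.09), and Fcgr1, the high-affinity IgG receptor, at 33.98, 39.5 and 38.2 against 52.95, 60.1 and 65.7 CPM (-0.68 ± 0.11). Of 23 Toll-like receptor and inflammasome genes none rose and 3 fell (median -0.11), where 14.7% of all genes were called and 7.01% fell. The log2 fold change was below 0 in 17 of the 23, where 6364 of all 12900 were. In 8 every knockout library was below every control, against 16.6% of all genes. Among the 3 that fell was Tlr5, the flagellin receptor, at 43.5, 45.9 and 49.2 against 58.4, 62.8 and 57.02 CPM (-0.36 ± 0.09). Arginine use changed at its ends: Ass1, which rebuilds arginine from citrulline, fell (1.03, 1.304 and 1.34 against 4.39, 4.400 and 2.79 CPM, -1.65 ± 0.28), and Odc1, which makes polyamines from ornithine, rose (105, 94.5 and 92.7 against 78.04, 76.2 and 72.3 CPM, 0.37 ± 0.08). Arg1, which cleaves arginine, was uneven (1.49, 5.34 and 1.14 against 0.256, 0.463 and 0.232 CPM, 3.01 ± 0.88), and its call ended without control 1, control 2, control 3 or knockout 2 (log2 fold change 1.99 to 3.42, adjusted p up to 0.17). Of 30 lysosome genes none rose and 5 fell (median -0.09), where 14.7% of all genes were called and 7.01% fell. The lysosome count was 3 without control 1, control 2 or knockout 2 and 1 without control 3 or knockout 1.

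Secreted and surface proteins of other systems changed singly. C3, the central complement protein, was at 123, 165 and 108 CPM in the knockouts and at 479, 376 and 409 CPM in the controls (-1.67 ± 0.14, adjusted p = 3.1e-07), while C4b was at 16.5, 16.8 and 25.5 against 1.74, 1.31 and 0.883 CPM (3.91 ± 0.44). Of 8 tested complement genes 2 rose and 2 fell (median 0.05), and 1 rose without control 3, knockout 2 or knockout 3. Thbd, the anticoagulant thrombomodulin, was at 120.1, 71.00 and 128 against 34.2, 48.1 and 42.8 CPM (1.35 ± 0.20), and coagulation factor F10 at 318, 345 and 352 against 204, 205 and 198 CPM (0.74 ± 0.08). The ectonucleotidase Nt5e (CD73), which makes adenosine, was at 205, 176 and 228 against 49.4, 79.5 and 66.7 CPM (1.64 ± 0.18, adjusted p = 6.5e-06), and the nucleotide receptor P2ry6 fell (47.6, 51.2 and 51.6 against 70.3, 72.6 and 74.8 CPM, -0.53 ± 0.11). The scavenger receptors Colec12 (71.8, 41.8 and 85.5 against 11.9, 17.2 and 11.6 CPM, 2.29 ± 0.23) and Msr1 (42.5, 49.7 and 45.9 against 27.8, 19.8 and 19.6 CPM, 1.04 ± 0.19) rose.

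The genes with the lowest fold changes were few and mostly of a few CPM. Fam167a was at 0.728, 0.931 and 0.957 CPM in the knockouts and at 10.1, 7.797 and 9.39 CPM in the controls (-3.37 ± 0.30, adjusted p = 4.8e-07). Unc5a, a netrin receptor, was at 0.827, 0.838 and 0.658 against 7.56, 7.41 and 8.22 CPM (-3.31 ± 0.30), and Epor, the erythropoietin receptor, at 0.430, 0.342 and 0.329 against 3.68, 2.82 and 2.83 CPM (-3.07 ± 0.43). Syp, the synaptic vesicle protein synaptophysin, had the smallest adjusted p of all genes that fell, with a mean of 2.17 ± 0.111 against 15.2 ± 1.09 CPM (SD, n = 3) (-2.81 ± 0.12, adjusted p = 6.7e-11). Pdpn, podoplanin, was at 0.827, 0.994 and 0.957 against 7.87, 6.48 and 5.07 CPM (-2.80 ± 0.26). Igflr1 was uneven among its controls (3.97, 3.105 and 5.11 against 15.2, 42.4 and 50.3 CPM, -3.15 ± 0.35), with control 1 the nearest to the knockouts. Siglece, an inhibitory lectin, and Cd52 fell at higher levels, Siglece from 56.4, 57.1 and 70.9 to 22.00, 20.4 and 19.8 CPM (-1.57 ± 0.11) and Cd52 from 86.9, 97.1 and 90.1 to 37.8, 35.4 and 38.05 CPM (-1.30 ± 0.09).

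**Figure D4:**
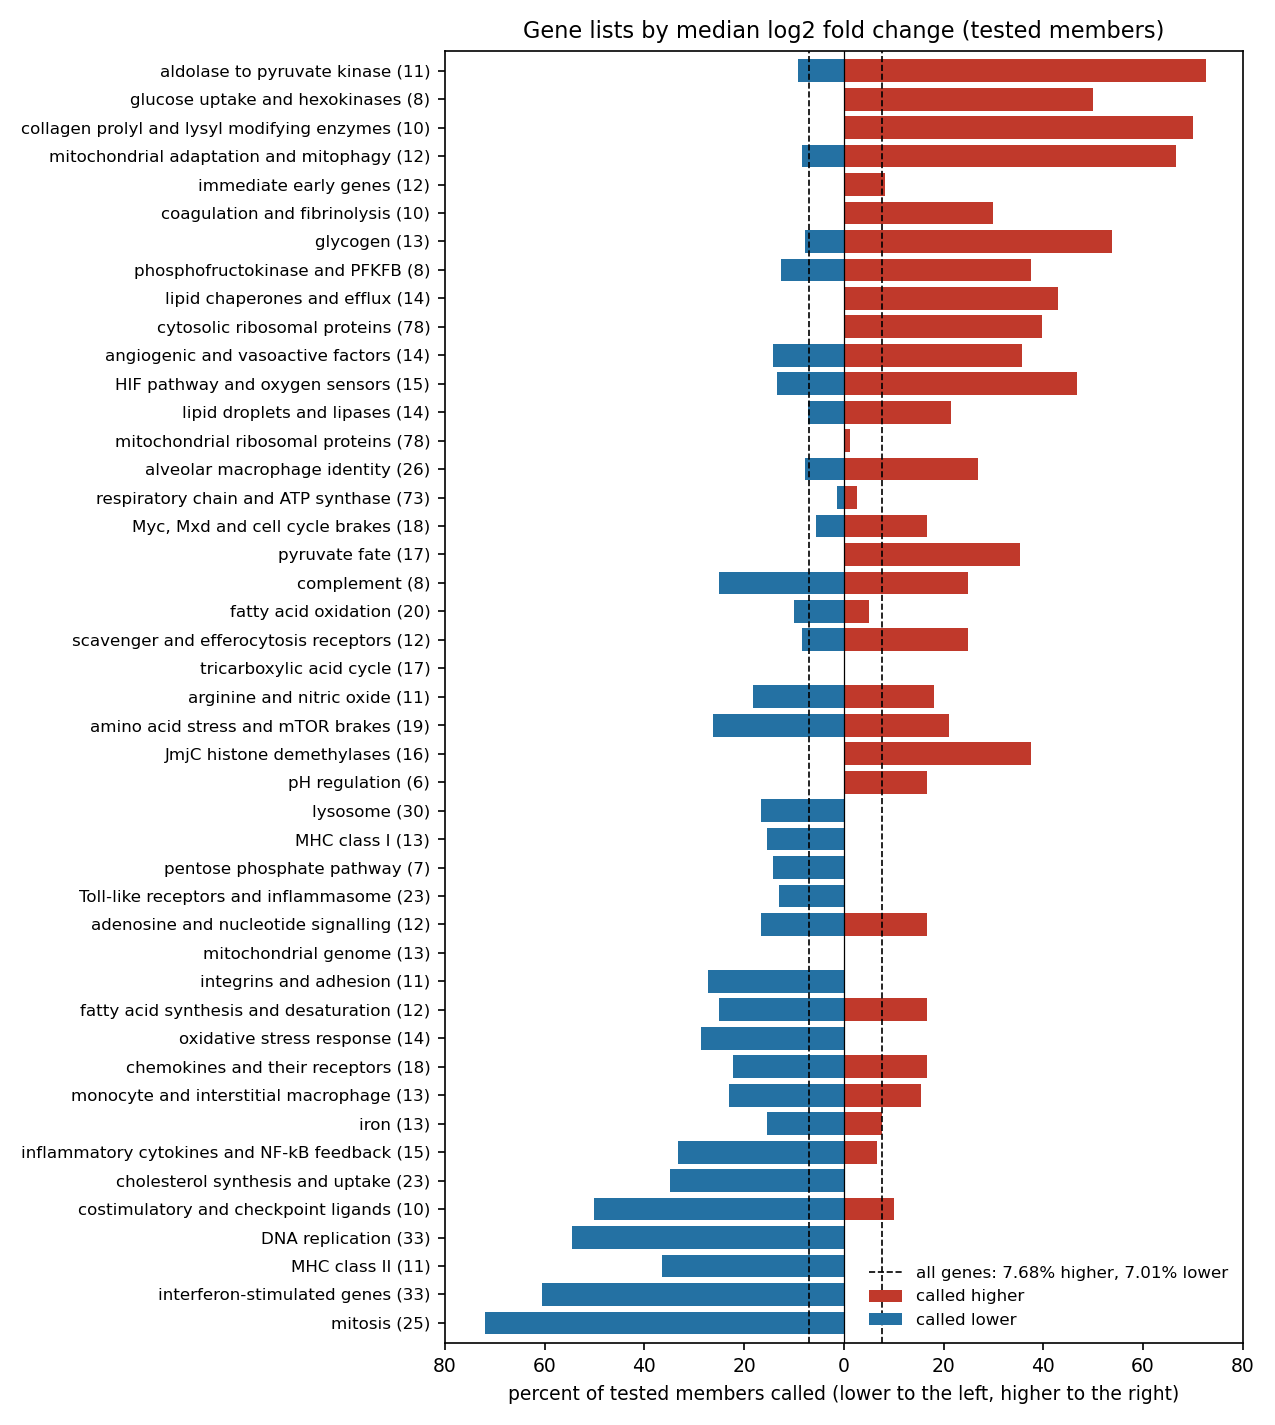
Share of the tested members of each gene list that rose (to the right) or fell (to the left), in percent, ordered by the median log2 fold change of the list, with the number tested in brackets. Dashed lines mark 7.68% higher and 7.01% lower, the shares over all 12900 genes, and the glycolytic and collagen lists lie far to the right of them while mitosis and interferon-stimulated genes lie far to the left.

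In the triple cross, whose labels name Hif1a as deleted too and which shares no library with these, 5 genes were called (0.0388%), 4 higher (0.0310%) and Vhl lower (0.00775%). At an unadjusted p under 0.05 in edgeR it had 1484 genes, this cross 3397 and the Vhl/Hif1a cross 1697. The few calls therefore do not show that other genes were unchanged. In a principal component analysis of all 18 libraries, triple control 2 lay at -53.46 on the second component. The other triple controls lay at -11.99 and -4.07. Of the genes called here, 3 that rose and 1 that fell were called in the same direction in the triple cross. The difference between the Vhl/Hif2a effect and the triple effect was tested in the same edgeR fit. It was called for 1031 genes (7.99%), 634 with a higher value here (4.91%) and 397 with a lower one (3.08%), and the count was 687 without triple knockout 1 and 719 to 1406 without any other library of these crosses. Of the 991 genes that rose here, 571 differed from the triple effect, 570 of them toward a higher value here, and of the 904 that fell, 361 differed, all toward a lower value. The median log2 fold change in the triple cross was -0.07 for the former and -0.03 for the latter. Pgk1 had the smallest adjusted p of the difference: its log2 fold change was -0.01 ± 0.10 in the triple cross (3.45 ± 0.11 here, difference 3.46 ± 0.15, adjusted p = 4.4e-10). Slc2a1 was at -0.50 ± 0.19 there (difference 4.37 ± 0.27, adjusted p = 1.3e-08) and Bnip3 at 0.21 ± 0.17 (difference 4.09 ± 0.24). On the falling side Syp was at -0.14 ± 0.10 in the triple cross (difference -2.67 ± 0.15, adjusted p = 8.9e-09) and Fads1 at -0.17 ± 0.19 (difference -2.48 ± 0.28). The mitosis list had a median of 0.11 there, and 15 of its 25 genes differed.

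Itgam, Itgax and Plcb4 rose in both crosses. Itgam was at 1.25 ± 0.20 in the triple cross (adjusted p = 0.035) and rose more here (difference 1.55 ± 0.29, adjusted p = 0.0024). For Itgax the difference did not pass (0.66 ± 0.07 there, difference -0.20 ± 0.09, adjusted p = 0.18). Plcb4, a phospholipase C named after its values were seen, was at 12.6, 15.1 and 16.3 CPM in the knockouts and at 0.920, 0.810 and 0.372 CPM in the controls here (4.38 ± 0.32), rose more in the triple cross (6.83 ± 0.37, difference -2.45 ± 0.56, adjusted p = 0.011), and rose in the Vhl/Hif1a cross as well (4.52 ± 0.31). The crosses also differ in the sex of their libraries, read from 2 genes chosen after their values were seen: Xist was at 291 to 744 CPM in these 6 libraries and 0.229 to 0.377 CPM in the triple cross, and Ddx3y, on the Y chromosome, at 0 to 0.0772 CPM here and 47.3 to 110 CPM there. The Hif1a genotype and the sex of the mice cannot be told apart in this difference.

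**Figure D5:**
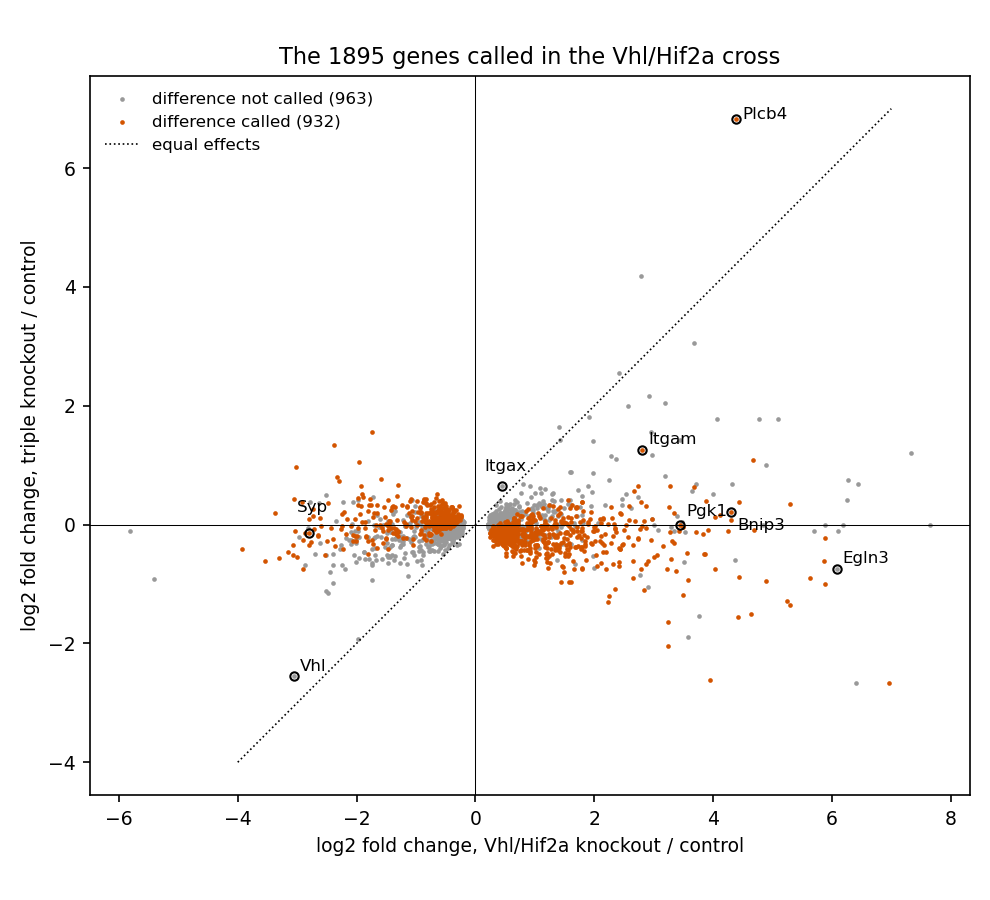
Log2 fold change in the triple cross (y axis) against that in the Vhl/Hif2a cross (x axis) for the 1895 genes called in the latter, coloured by whether the difference between the effects was called (932 genes), with a dotted line of equal effects. Pgk1 lies at 3.45 on the x axis and -0.01 on the y axis, and the cloud is spread along the x axis, with Vhl, Itgam and Plcb4 among the few labelled points away from zero on both axes.

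In the Vhl/Hif1a cross, whose labels name Hif1a in place of Hif2a and which has the same sex pattern as this one, 469 genes were called (3.64%), 286 higher (2.22%) and 183 lower (1.42%). Of the genes that rose here 202 also rose there, and of those that fell 128 also fell. The difference between the effects was called for 315 genes (2.44%), 210 with a higher value here (1.63%) and 105 with a lower one (0.814%), and the range without single libraries was 216 to 280. Genes of glucose use had the smallest adjusted p of this difference. Pgk1 was at -0.10 ± 0.10 in the Vhl/Hif1a cross (difference 3.55 ± 0.15, adjusted p = 3e-10), Eno1 at -0.04 ± 0.10 (difference 2.33 ± 0.14) and Pgm1 at -0.07 ± 0.09 (difference 2.44 ± 0.12). Slc2a1 and Bnip3 rose in both crosses, at 1.72 ± 0.19 and 2.39 ± 0.17 there, and by more here (adjusted p of the difference 8.3e-05 and 0.00011). Gsn and Nt5e rose by amounts whose difference did not pass: Gsn by 2.73 ± 0.20 there (difference -0.29 ± 0.27, adjusted p = 0.89), and Nt5e by 1.70 ± 0.18 (difference -0.07 ± 0.25, adjusted p = 1). The class II list, at a median of -0.47 here, had a median of 2.46 there, and 8 of its 11 genes differed. The lists of dividing cells were lower in both crosses. Mitosis genes had a median of -0.32 there, with 5 of 25 called and 0 differing between the effects. For DNA replication genes the median there was -0.30, with 0 of 33 called and 0 differing. Interferon-stimulated genes had a median of -0.35 there, with 8 of 33 called and 1 differing.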

How the data were processed

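RNA-seq of bronchoalveolar cells held back with CD11c beads gave 18 libraries, 3 in each of 6 groups. The deposited table holds estimated counts per gene (expected counts, not all whole). FastQC, cutadapt, STAR and the GRCm38 build are named per the submitters' processing notes, and how reads were assigned to genes and strands is not given in the sources used, so antisense and overlapping genes cannot be told apart.

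Expected counts were rounded to whole numbers. The 12900 of 32789 genes that passed filterByExpr were fitted in edgeR 4.0.16 (limma 3.58.1, R 4.3.3) with TMM factors, 1 coefficient per group and the quasi-likelihood test over all 18 libraries. Standard errors are the fold change over the root of its F value. The members and gene lists were chosen with earlier results of these data known. Genes were named by list and, at a mean of at least 1 CPM with no overlap of the groups, as the 15 with the highest and lowest fold changes and the 15 with the largest gain and loss in CPM, plus the 10 with the smallest p of the difference from the triple effect in each direction. Unnamed gene models were passed over. Positions are from GENCODE M21, and levels per kilobase divide by exon length. On data simulated for the Vhl/Hif2a comparison (12900 genes) the fit called 24%, 82%, 100% and 100% of genes changed by 0.5, 1, 2 and 3 on the log2 scale (50 each), and 4 unchanged ones. The alternatives were other size factors, DESeq2 1.42.0, other filters, counts rounded down, a replicate block, the 6 libraries alone, and each library left out.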

Additional observations from a re-analysis of the deposited data

Results flagged for a closer look

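The Vhl/Hif2a effect differed from the triple knockout effect in 1031 genes and from the Vhl/Hif1a effect in 315, by a test of the difference in the same edgeR fit (adjusted p under 0.05).

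Of these, 9 genes were called in both the Vhl/Hif2a and the Vhl/Hif1a cross in opposite directions, with the difference between the effects called as well. Narf was at 1.87 here and -0.47 there (difference 2.341), and Plcb1 at 0.65 and -0.78 (difference 1.433). Cyp4f37, a cytochrome P450, was at 1.21 and -1.25 (difference 2.455). Tgm2, a transglutaminase, was at 0.30 and -0.40 (difference 0.699), and Spn, which encodes CD43, at 0.29 and -0.23 (difference 0.517). The other 4 were lower here and higher there. Ciita was at -0.98 and 3.58 (difference -4.561), H2-Oa, a class II chaperone subunit, at -1.11 and 1.71 (difference -2.818), H2-M3 at -0.29 and 0.59 (difference -0.886) and Scml4 at -0.65 and 0.92 (difference -1.570). Here the calls of Ciita ended without control 2, control 3, knockout 1, knockout 2 or knockout 3 (log2 fold change -1.10 to -0.80, adjusted p up to 0.16) and those of H2-Oa without knockout 1 (log2 fold change -0.93, adjusted p = 0.082).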

How the results depend on the processing

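The 1895 calls of the comparison became 1893 with RLE size factors, 2220 with DESeq2, 1621 without a filter on low counts, 1853 with at least 1 CPM in 3 libraries, 1894 with counts rounded down and 1929 with the 6 libraries alone. Without single libraries the count was 1227 to 1625, the lowest without knockout 1. The difference from the triple effect, 1031 genes, ranged from 687 without triple knockout 1 to 1406 without triple control 3. The difference from the Vhl/Hif1a effect, 315 genes, was 492 with DESeq2 and ranged from 216 to 280 without single libraries.

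With the replicate block, which treats equal replicate numbers as pairs, the counts were 1440, 736 and 194. The deviations of same-numbered libraries of this cross correlated at -0.218, 0.056 and 0.2 for numbers 1, 2 and 3. Only the libraries numbered 3 correlated best with their own number, so the numbers are not taken as pairs.

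Of the 1895 calls, 99.1% were also made with RLE size factors, 99.5% with DESeq2, 73.9% with the block, 81.1% with the 6 libraries alone and 64% without knockout 1. Of 321 genes followed one by one, 203 were called in every fit that left out a library, 118 lost their call in at least 1, and 20 had a fold change that moved by over 1.5 times. No direction reversed in any alternative run. Depth limits the genes near 0 in the controls, whose fold changes depend on a few counts.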
